A study of Danio rerio with 4 samples.

Results

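pou5f3, nanog and sox19b encode the transcription factors with which the zebrafish embryo starts to read its own genome. The genes were taken by name, and each matched 1 of the 25769 genes of the bulk SLAM-Seq table (ENSDARG00000044774, ENSDARG00000075113 and ENSDARG00000040266, with gene lengths of 2476, 2959 and 2561 bases). All 3 had reads in all 4 libraries, between 2370 and 21230 reads each. AB/TL wild-type embryos were injected with 4sU at the 1-cell stage, and samples of 25 embryos were collected at 30% epiboly (4.8 hpf) and at the 4-cell stage (1 hpf). Each stage had 1 polyA+ library, read on a NextSeq, and 1 ribo-depleted library of total RNA, read on a NovaSeq. The stage and the 50 mM 4sU follow the study's methods, while the labels read 20 mM for all 4 samples and 6 hpf for the later ones. RNA made after injection carries 4sU, which iodoacetamide turns into T-to-C conversions in the reads. The new-to-total ratio (NTR) of a gene is the share of its RNA that is labeled, and reads are called new (reads multiplied by NTR) or stored (the remainder). Every embryo received the label, no unlabeled control entered the comparisons, and each stage had 1 library of each type, so values within a library type have no replicate error.

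The early zebrafish embryo runs on mRNAs and proteins that the mother placed in the egg, and its own genome is read only after a series of rapid cleavages. Pou5f3, a POU domain protein related to mammalian Oct4, Nanog, a homeodomain protein, and Sox19b, an HMG box protein of the SoxB1 group, bind DNA motifs in chromatin that is still largely silent, help to open it, and are needed for many of the first zygotic genes. Their mRNAs are stored in the egg. Zygotic pou5f3 is also transcribed in the blastula and gastrula, and sox19b is known as the maternal member of the SoxB1 group.

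The stages carried the transcripts their labels imply. Among 6 zygotic markers (tbxta, gsc, chrd, cxcr4a, krt8 and spaca4l), 6 rose at 4.8 hpf against 1 hpf by edgeR, beside 18.3% of all genes, and among 6 egg-stored markers (h1m, wee2, zar1, buc, btg4 and org), 3 fell (btg4, org and wee2), beside 14.4%. Libraries held 9058807 to 22521675 reads. New reads made up 16.4% and 18.7% of the reads at 4.8 hpf (polyA+ and ribo-depleted), against 0.188% and 1.40% at 1 hpf. These shares sum each gene's reads multiplied by its NTR. The paper reports a higher labeled share for each of these bulk libraries, with the wider gap in ribo-depleted RNA, and the source of the gap was not tested. In bulk embryos a change in the number of cells that carry an mRNA and a change in its amount per cell cannot be told apart.

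pou5f3 was the most labeled of the 3 genes. Its NTR at 4.8 hpf was 38.9% in polyA+ RNA (95% Wilson interval, 38.2% to 39.6%) and 43.4% in ribo-depleted RNA (42.6% to 44.2%), against 0.38% and 8.82% at 1 hpf. The intervals take new reads as if counted, and so hold counting error alone. With the NTR at 1 hpf subtracted, the NTR of pou5f3 at 4.8 hpf was 38.5% in polyA+ RNA and 34.6% in ribo-depleted RNA. Levels are given in RPM (reads per 1000000 reads of the library). pou5f3 had 1860 and 825 RPM at 4.8 hpf (polyA+ and ribo-depleted), against 874 and 347 RPM at 1 hpf, 2.13-fold and 2.38-fold the 1 hpf levels of the same library type. Within each library type the 4.8 hpf library was the higher one, while across types the levels of both stages overlapped. Of the 7376 genes that reached 100 reads in every library, 88.1% had a lower ratio than pou5f3 between the polyA+ libraries and 98.0% between the ribo-depleted libraries.

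New RNA made up most of that increase. New pou5f3 reads reached 724 RPM (polyA+) and 358 RPM (ribo-depleted) at 4.8 hpf, against 3.32 and 30.6 at 1 hpf. By the deposited NTR, they accounted for 73.0% of the difference between stages in the polyA+ libraries and for 68.6% in the ribo-depleted libraries. pou5f3 ranked 14th among all genes by new reads in the 4.8 hpf polyA+ library, with 0.441% of all new reads, and 79th in the ribo-depleted library, with 0.192%.
Stored pou5f3 reads were 1137 and 467 RPM at 4.8 hpf (polyA+ and ribo-depleted), against 870 and 317 at 1 hpf, a log2 ratio of 0.38 (counting interval, 0.34 to 0.43) and 0.56 (0.51 to 0.60). Over the 7376 genes the median log2 ratio of stored reads was −0.28 and −0.47. In polyA+ RNA the sign of the pou5f3 ratio depended on the scale of the NTR. Genes with no read at 1 hpf, whose RNA at 4.8 hpf was taken as new, had a median NTR of 70.6% over 130 genes in polyA+ RNA and 78.3% over 177 genes in ribo-depleted RNA. With the NTR of pou5f3 divided by these medians, an alternative added after seeing the data, 55.1% and 55.5% of its RNA was new, and the stored log2 ratio was −0.059 in polyA+ and 0.21 in ribo-depleted RNA. New pou5f3 reads at 4.8 hpf were then 1024 and 458 RPM, beside a difference in total reads between stages of 986 and 478 RPM. Unlike in the shares of 73.0% and 68.6%, the new reads at 1 hpf (3.32 and 30.6 RPM) were not subtracted here. The share of the difference in total reads due to new RNA thus depended on the scale of the NTR too.

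**Figure D1:**
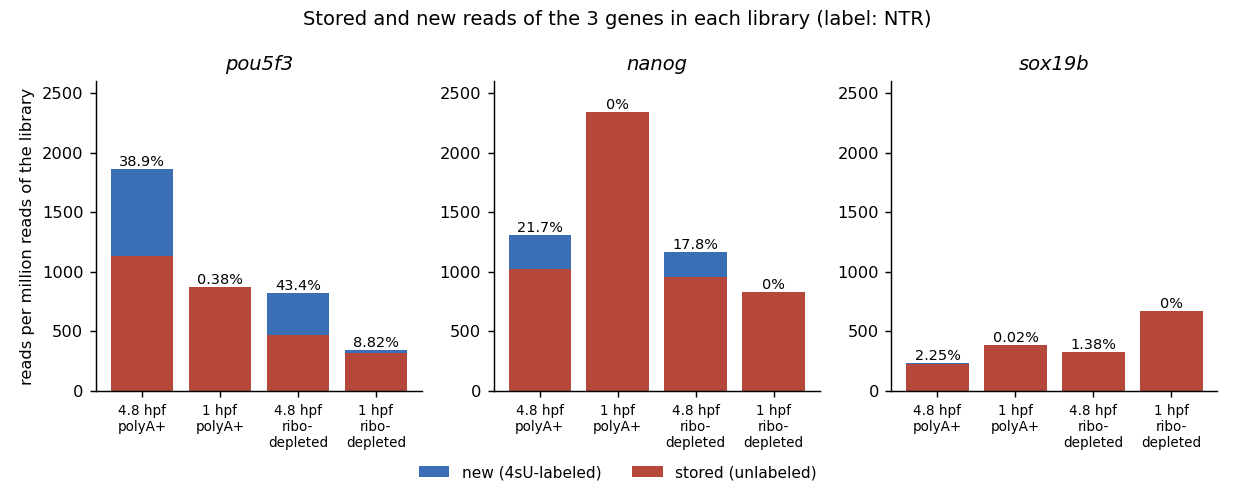
Stored (red) and new (blue) RPM of pou5f3, nanog and sox19b in each of the 4 libraries, with the NTR above each bar. pou5f3 carries 38.9% and 43.4% new reads at 4.8 hpf, nanog 21.7% and 17.8%, and sox19b 2.25% and 1.38%.

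The labeling of pou5f3 at 1 hpf differed between library types. In the 1 hpf ribo-depleted library 1795 conversions were counted in pou5f3, or 0.632% of its covered T bases (0.603% to 0.661%), and its NTR of 8.82% was reached or passed by 473 of 11491 genes that reached 100 reads. In the 1 hpf polyA+ library 0.199% of its T bases were read as C (0.177% to 0.223%), close to the 0.177% over all genes of that library. Its NTR of 0.38% there was reached or passed by 1155 of 8418 genes that reached 100 reads. The other 2 genes were below the library-wide share at 1 hpf in both library types. In the same 1 hpf ribo-depleted library h1m, an egg-stored linker histone mRNA, had an NTR of 12.3%. The 5 other egg-stored markers had an NTR of 0.09% or less there. The paper places the start of genome activation after this stage. Reads called new at 1 hpf follow from the NTR alone. Whether the conversions of pou5f3 at 1 hpf came from new RNA or from background was not tested.

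nanog was labeled to an intermediate extent. Its NTR at 4.8 hpf was 21.7% in polyA+ RNA (21.0% to 22.4%) and 17.8% in ribo-depleted RNA (17.3% to 18.3%), against 0% in both 1 hpf libraries. Computed from the conversions, relative to genes with no 1 hpf read, it was 34.2% and 27.9%, outside these intervals. New nanog reads were 283 and 207 RPM at 4.8 hpf (polyA+ and ribo-depleted), and ranked nanog 55th and 164th among all genes. Of its covered T bases, 2.03% and 1.42% were read as C at 4.8 hpf, against 0.0859% and 0.0555% at 1 hpf. Among the 6 egg-stored markers the NTR at 4.8 hpf reached 6.44% in polyA+ and 20.4% in ribo-depleted RNA. Their medians were 0.1% and 0.47%. In ribo-depleted RNA the NTR of nanog at 4.8 hpf thus lay below that of the most labeled egg-stored marker. In the 1 hpf ribo-depleted library, however, the egg-stored markers already reached 12.3% (h1m), against 0% for nanog, so the 4.8 hpf values do not start from the same level.
In RPM, the total level of nanog moved in opposite directions in the library types. nanog had 1306 RPM in the 4.8 hpf polyA+ library against 2344 in the 1 hpf polyA+ library, where only 11 genes had more reads. It had 1162 RPM in the 4.8 hpf ribo-depleted library against 826 in the 1 hpf ribo-depleted library. The 4.8 hpf level was 0.557-fold the 1 hpf level in polyA+ RNA and 1.41-fold in ribo-depleted RNA. Stored nanog reads followed the same split, with 1022 RPM at 4.8 hpf against 2344 at 1 hpf in the polyA+ libraries, and 955 against 826 in the ribo-depleted libraries.
Of the 7376 genes, 8.15% were lower at 4.8 hpf in polyA+ and higher in ribo-depleted RNA, as nanog was. The difference between the log2 changes of the library types was −1.34 for nanog, and only 1.86% of these genes had a lower one, beside a median of 0.12. The polyA+ level of nanog was 2.84-fold its ribo-depleted level at 1 hpf and 1.12-fold at 4.8 hpf, beside 2.51-fold and 2.25-fold for pou5f3. Which stage the split came from cannot be told with 1 library of each type per stage. The stage and library type terms use all but 1 degree of freedom of the 4 libraries, so the difference between library types has no test. Library type also cannot be told apart from sequencing platform.

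sox19b was almost unlabeled. Its NTR at 4.8 hpf was 2.25% in polyA+ RNA (1.73% to 2.93%) and 1.38% in ribo-depleted RNA (1.11% to 1.71%), against 0.02% and 0% at 1 hpf. Computed from the conversions, it was 4.06% and 2.998%, outside these intervals. New sox19b reads were 5.22 and 4.54 RPM at 4.8 hpf (polyA+ and ribo-depleted). Its conversions were above their own 1 hpf share, at 0.326% (0.278% to 0.382%) and 0.198% (0.180% to 0.218%) of covered T bases at 4.8 hpf, against 0.0957% (0.0753% to 0.122%) and 0.0516% (0.0462% to 0.0577%) at 1 hpf. At 4.8 hpf, 28.3% (polyA+) and 21.7% (ribo-depleted) of genes with 100 reads or more had a lower NTR than sox19b.
sox19b had 232 and 329 RPM at 4.8 hpf (polyA+ and ribo-depleted), against 389 and 668 RPM at 1 hpf. Both 4.8 hpf libraries were below both 1 hpf libraries. The 4.8 hpf level was 0.597-fold and 0.493-fold the 1 hpf level of the same library type. Stored reads gave a log2 ratio of −0.78 and −1.04, against a median of −0.28 and −0.47 over the 7376 genes, of which 34.3% and 29.5% had a lower ratio than sox19b. These ratios compare shares of library totals, which hold new RNA at 4.8 hpf. Scaled to stored reads alone, the sox19b ratios were −0.52 and −0.76. The medians above are not on that scale, on which the ratios of all genes shift alike.

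**Figure D2:**
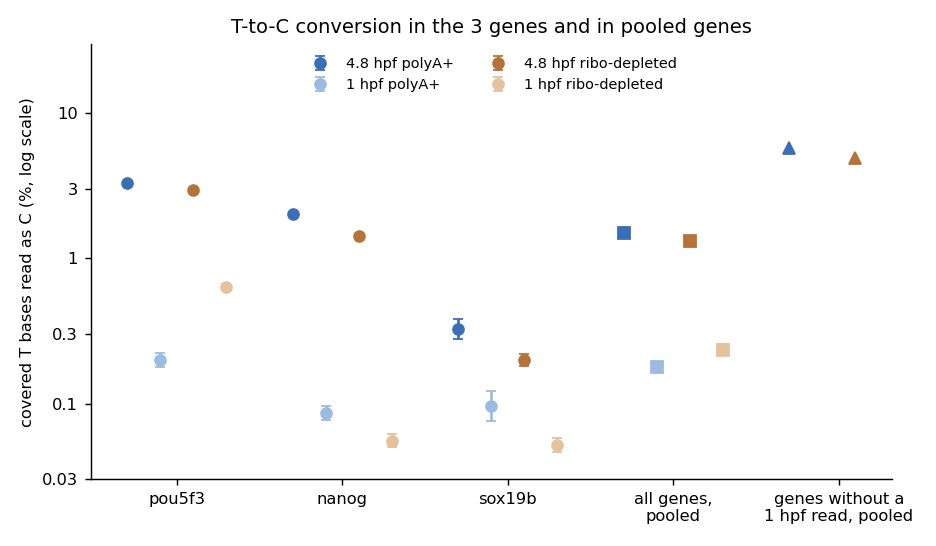
Share of covered T bases read as C, in percent on a log scale, for the 3 genes (circles, with 95% Wilson intervals), for all genes pooled (squares) and for genes without a 1 hpf read pooled (triangles), in each library. At 4.8 hpf the order is pou5f3 (3.30% and 2.98%), nanog (2.03% and 1.42%) and sox19b (0.326% and 0.198%), and pou5f3 also stands above the other 2 genes in both 1 hpf libraries.

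The order of the 3 genes by NTR at 4.8 hpf was the same in both library types. Their Wilson intervals did not overlap within either 4.8 hpf library. The order by level depended on stage and library type. Levels of different genes are compared in TPM, for which reads were divided by gene length and scaled to 1000000 per library. pou5f3 stood at 1750 TPM, nanog at 1028 and sox19b at 211 in the 4.8 hpf polyA+ library, against 840 for pou5f3, 1886 for nanog and 362 for sox19b in the 1 hpf polyA+ library. In the 4.8 hpf ribo-depleted library the levels in TPM were 442 for pou5f3, 521 for nanog and 170 for sox19b, against 255 for pou5f3, 507 for nanog and 473 for sox19b in the 1 hpf ribo-depleted library. sox19b was the lowest of the 3 at 4.8 hpf in both library types, and pou5f3 the lowest in the 1 hpf ribo-depleted library. Without replicates within a library type, whether neighbours in these orders differ beyond replicate spread was not tested.

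A test across all genes did not call any of the 3. Total reads were compared between stages by edgeR's quasi-likelihood test with library type as a covariate, with Benjamini-Hochberg adjustment over the 16315 genes tested, of which 32.6% were called at 4.8 hpf against 1 hpf. The log2 change was 1.32 ± 0.73 (SE) for pou5f3 (adjusted p = 0.156), −0.02 ± 0.80 for nanog (adjusted p = 0.985) and −0.73 ± 0.60 for sox19b (adjusted p = 0.367). By this test, 0 of the 3 genes were called and 0 had an unadjusted p under 0.05, while DESeq2 called 1 of them, pou5f3 (log2 change 1.36, adjusted p = 0.0058). Over all genes, DESeq2 called 3682 of the 17757 it tested. Over the other settings of edgeR the adjusted p of pou5f3 lay between 0.060 and 0.971, and its log2 change was 0.49 without the 4.8 hpf polyA+ library, 0.62 without the 1 hpf ribo-depleted library and 2.24 without the 1 hpf polyA+ library, each time without the library type term. With 1 residual degree of freedom, the fit measures disagreement of the library types, but not how embryo batches vary, so a missed threshold does not show that a level did not change.
Stored reads were tested in the same way over 15434 genes, of which 26.6% were called, 1300 higher (8.42%) and 2802 lower (18.2%) at 4.8 hpf. With scaling to the stored reads themselves, 1675 genes were higher and 1969 lower. The genes called higher at the first scaling included 6 of 6 zygotic markers and 12 of 13 tested genes that depend on these factors (listed below). Genes with no read at 1 hpf had a median NTR of 70.6% and 78.3%, so part of their RNA was counted as stored. A call of higher stored reads is thus not by itself a rise of egg-stored RNA. The log2 change in stored reads was 0.62 ± 0.70 (SE) for pou5f3 (adjusted p = 0.551), −0.34 ± 0.83 for nanog (adjusted p = 0.799) and −0.76 ± 0.62 for sox19b (adjusted p = 0.396). None of the 3 was called by edgeR or DESeq2, and 0 had an unadjusted p under 0.05 in either. DESeq2 called 2713 of the 16391 genes it tested in stored reads.

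**Figure D3:**
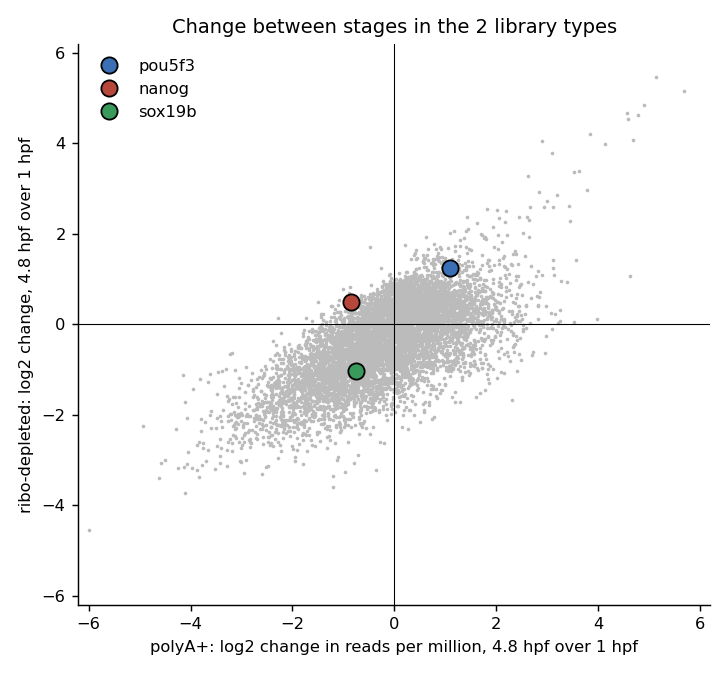
Log2 change in RPM at 4.8 hpf over 1 hpf in the polyA+ libraries (x axis) and in the ribo-depleted libraries (y axis) for 7376 genes that reached 100 reads in every library (gray), with the 3 genes in color. pou5f3 lies in the upper right (1.09 and 1.25), sox19b in the lower left (−0.74 and −1.02), and nanog in the upper left (−0.84 and 0.49), a quadrant with 8.15% of the genes.

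The library types also weighed the 3 genes differently at a given stage. The polyA+ level of pou5f3 was 2.25-fold its ribo-depleted level at 4.8 hpf, against 2.51-fold at 1 hpf, a ratio above that of 93.6% and 91.7% of the genes. That of sox19b was 0.705-fold its ribo-depleted level at 4.8 hpf, against 0.582-fold at 1 hpf. In edgeR's library type term, with 11.6% of genes called, none of the 3 passed the threshold (adjusted p = 0.214 for pou5f3, 0.493 for nanog and 0.717 for sox19b).

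Sox19b belongs to a group of closely related SoxB1 proteins that can stand in for each other in the embryo. Of 5 other SoxB1 genes, sox1a, sox2, sox3 and sox19a were in the table, and sox1b was not analysed here. sox19a had 1740.5 and 2590.5 reads at 4.8 hpf (polyA+ and ribo-depleted), against 0 and 4 reads at 1 hpf. sox3 had 1894 and 2079 reads at 4.8 hpf against 3 and 10 at 1 hpf, and sox2 had 160 and 107 reads against 1 and 0. These 3 rose (adjusted p = 9.2e-19 or less by edgeR, where 18.3% of all genes rose), while sox1a, with 2 reads or fewer in every library, was not tested. sox2 lost its call without the 1 hpf ribo-depleted library and the library type term (adjusted p = 0.063). The NTR of sox19a, sox3 and sox2 at 4.8 hpf was 69.1% to 78.6% in the polyA+ library and 76.5% to 80.2% in the ribo-depleted library, beside 2.25% and 1.38% for sox19b.
Summed over the 5 SoxB1 genes in the table, sox19b held 32.1% and 48.6% of the SoxB1 sum in TPM at 4.8 hpf (polyA+ and ribo-depleted), against 99.8% and 99.9% at 1 hpf. The summed level was 657 TPM in the 4.8 hpf polyA+ library against 362 in the 1 hpf polyA+ library. It was 351 TPM in the ribo-depleted library of 4.8 hpf, against 474 in the 1 hpf ribo-depleted library. The SoxB1 sum in TPM was thus higher at 4.8 hpf in polyA+ and lower in ribo-depleted RNA, the reverse of the split of nanog in RPM. In TPM, nanog was 1028 at 4.8 hpf against 1886 at 1 hpf in polyA+ RNA, and nearly level in ribo-depleted RNA (521 against 507).

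**Figure D4:**
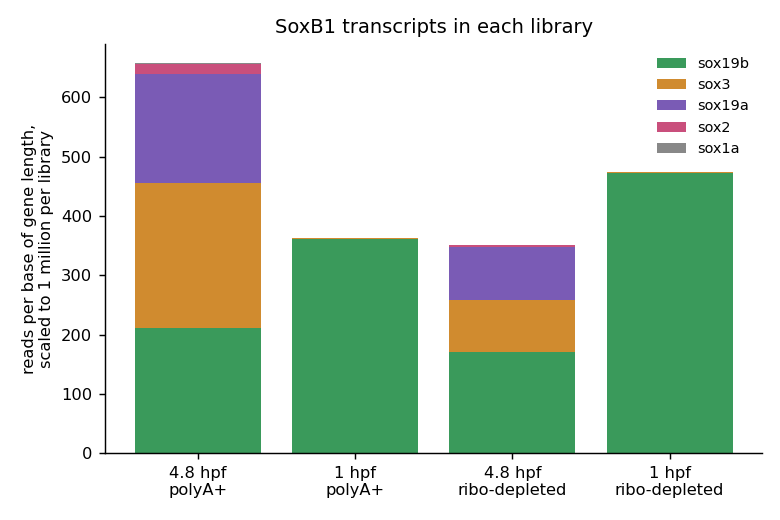
TPM (reads per base of gene length, scaled to 1000000 per library) of the SoxB1 genes sox19b, sox3, sox19a, sox2 and sox1a, stacked for each library. sox19b makes up 32.1% and 48.6% of the SoxB1 sum at 4.8 hpf, with sox3 and sox19a as most of the remainder, and 99.8% and 99.9% at 1 hpf.

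pou5f3 was the main POU transcript of the embryo at both stages. Of 16 other POU genes, which encode DNA-binding proteins of the same domain and mostly act later in the nervous system, 13 were in the table and 6 had enough reads for the test. In TPM, pou5f3 held 97.4% and 96.7% of the sum over POU genes at 4.8 hpf (polyA+ and ribo-depleted), against 94.2% and 90.4% at 1 hpf. pou2f1b, which encodes an Oct1-type factor, rose with 576 and 255 reads at 4.8 hpf against 213 and 127 reads at 1 hpf (edgeR log2 change 1.45 ± 0.45, adjusted p = 0.0059). pou3f2b fell with 2 and 2 reads at 4.8 hpf against 12.5 and 31.5 reads at 1 hpf (log2 change −3.01 ± 0.88, adjusted p = 0.0031), and the other 4 did not pass. Both calls make 2 of 6, beside 32.6% of all genes called. pou2f1b kept its call with DESeq2 (adjusted p = 0.019) and pou3f2b did not (adjusted p = 0.278), and neither was called by edgeR with any 1 library and the library type term left out. The median log2 change of the 6 was −0.66, beside 0.10 over all genes tested.

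Co-activators work together with these factors, among them the p300 and CBP acetyltransferases (ep300a, ep300b, crebbpa, crebbpb), the BET proteins that read acetylated histones (brd2a, brd2b, brd3a, brd3b), the remodeler ATPase smarca4a and the chromatin protein hmga1a. All 10 were present at 1 hpf, with 471 to 18126 reads in polyA+ RNA and 1321 to 14669 reads in ribo-depleted RNA. Of the 10, 1 rose, 0 fell and 9 did not pass the test of total reads, beside 32.6% of all genes called, and the median log2 change was 0.43 beside 0.10. The gene called was brd2a, with 5469 and 5535 reads at 4.8 hpf (polyA+ and ribo-depleted) against 822 and 2438 reads at 1 hpf (log2 change 2.19 ± 0.59, adjusted p = 0.0011). It was no longer called by edgeR without library type in the fit or with any 1 library left out as well. hmga1a did not pass (log2 change 1.61, adjusted p = 0.153) but was called by DESeq2 (adjusted p = 0.0012), beside 3682 of 17757 genes. The lowest log2 change was that of ep300a (−0.59 ± 0.46, adjusted p = 0.339). The NTR of the 10 genes at 4.8 hpf had a median of 13.9% in polyA+ RNA and 16.5% in ribo-depleted RNA, below pou5f3 and nanog and above sox19b, with brd2b lowest (0.57% and 0.38%) and brd2a highest (62.5% and 64.3%). In stored reads, where edgeR called 26.6% of all genes, 0 of the 10 passed the test by edgeR or DESeq2, with 1 (ep300a) at an unadjusted p under 0.05 by edgeR and 2 (ep300a and hmga1a) by DESeq2.

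**Figure D5:**
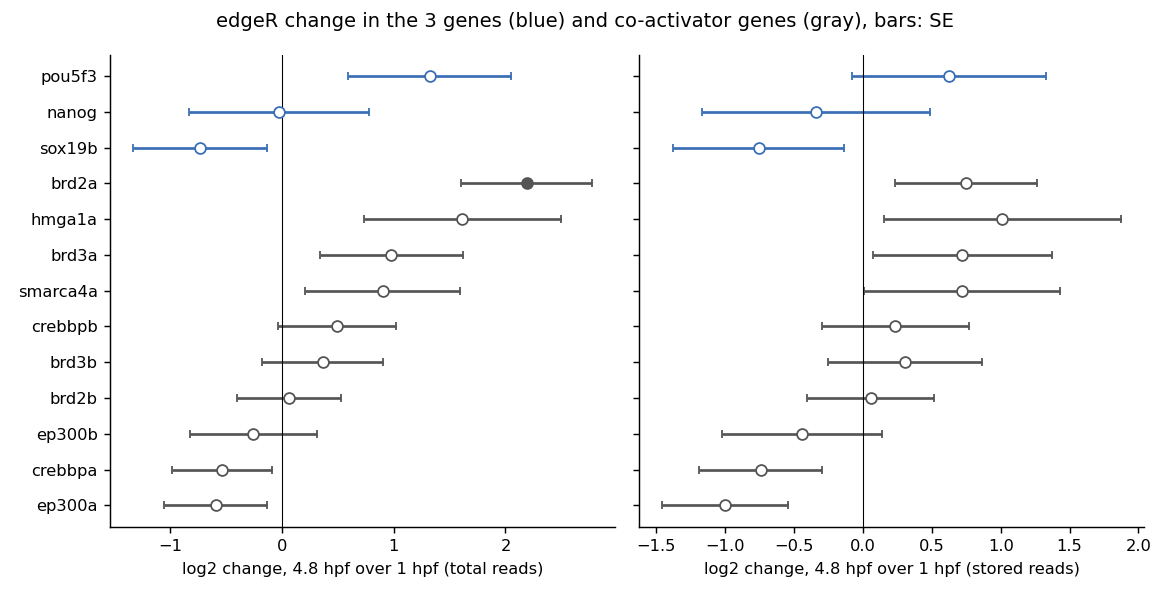
edgeR log2 change at 4.8 hpf over 1 hpf in total reads (left) and stored reads (right) for the 3 genes (blue) and 10 co-activator genes (gray), with standard errors as bars and filled circles for an adjusted p under 0.05. Only brd2a, in total reads, is filled, at 2.19.

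Genes that are known to depend on Pou5f3, Nanog or SoxB1 proteins in zebrafish were nearly absent at 1 hpf and present at 4.8 hpf. The 14 genes are mxtx2, sox32, klf17, klf2a, klf2b, her3, foxd3, vox, vent, ved, grhl3, tbx16, apoeb and aplnrb, among them the yolk syncytial layer regulator mxtx2, the endoderm regulator sox32 and the ventral repressors vox, vent and ved. At 4.8 hpf they had 11 to 15820 reads in polyA+ RNA and 21 to 21700 in ribo-depleted RNA, against 20.3 reads or fewer and 52 reads or fewer at 1 hpf, where 8 and 6 of them were at 0. The paper names tbx16 among maternally deposited mRNAs, while here it lay within these limits at 1 hpf. All 14 rose in total reads by edgeR, beside 18.3% of all genes, and her3 alone lost its call with DESeq2 (adjusted p = 0.066). The median log2 change was 11.9, beside 0.10 over all genes, and 8.41 with the 4 genes at 0 in both 1 hpf libraries set to a bound of 3 reads per library. klf2a had the lowest fitted change (3.34 ± 0.53). The NTR of the 13 with at least 100 reads at 4.8 hpf was 58.1% to 80.0% in the polyA+ library and 55.4% to 86.3% in the ribo-depleted library, above the 38.9% and 43.4% of pou5f3. The 6 zygotic markers also all rose, with a median log2 change of 9.42. Their NTR at 4.8 hpf was 66.1% to 74.4% (polyA+) and 73.9% to 88.0% (ribo-depleted). The rise and the high NTR were thus shared with the zygotic markers and are not particular to the 14 genes.

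Genes most like each of the 3 were sought among 7369 named genes that reached 100 reads in every library, by the root mean square difference over 8 log2 values (stored and new RPM in the 4 libraries, relative to the mean total level of the gene). For pou5f3 they were slc7a6, snrnp200, pcna, trnau1apb and rpl28, at a distance of 0.62 to 0.70 beside a median of 2.03 over all genes. Their NTR at 4.8 hpf was 26.2% to 34.1% in the polyA+ library and 27.0% to 41.5% in the ribo-depleted library. All 5 had a higher NTR in the 1 hpf ribo-depleted library (2.05% to 6.65%) than in the 1 hpf polyA+ library (0% to 0.28%). New RPM at 1 hpf was among the values that chose them, so this likeness is partly built in. The share of new reads over all genes was also higher in the 1 hpf ribo-depleted library (1.40% against 0.188%). For nanog they were rrm2, rrm2.1, mki67, cdca7a and prpf8, at 0.27 to 0.60 beside a median of 2.73. rrm2, with the ribonucleotide reductase small subunit as its product, came closest, with an NTR of 21.7% and 17.2% at 4.8 hpf, and 1136 and 1037 RPM at 4.8 hpf (polyA+ and ribo-depleted) against 2048 and 1057 at 1 hpf. For sox19b they were nme2b.1, mepce, rtkn2a, erlec1 and a gene with only a clone name (ENSDARG00000025174), at 0.39 to 0.46 beside a median of 2.03, with an NTR at 4.8 hpf of 0.99% to 4.04% in the polyA+ library and 0.76% to 2.20% in the ribo-depleted library. The nearest genes are a description over 4 libraries, which share depth and composition. They were chosen by stored and new RPM, so a similar NTR follows from the choice.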

How the data were processed

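RNA of zebrafish embryos labeled with 4sU was sequenced at 4.8 hpf and 1 hpf. The authors trimmed reads with cutadapt 3.5, aligned them with STAR 2.7.10a to GRCz11 and ran GRAND-SLAM 2.0.5f with default parameters. The authors deposited an estimated count of reads per gene, without normalization. The NTR was deposited as a fraction and is printed in percent. The deposited conversions and covered T bases are counts over the reads of a gene. The 2 samples of a stage are not matched to library types in the labels, and libraries were told apart by stage and instrument. Whether replicates are separate embryo batches is not given, and p-values may measure technical spread.

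Read counts were rounded and tested with edgeR 4.0.16 in R 4.3.3 (TMM, filterByExpr, library type as covariate, threshold 0.05), with the SE taken from the F statistic, or with DESeq2 1.42.0 as an alternative. Stored reads kept the TMM factors of total reads, whose median log2 change over all genes was 0.10, and −0.06 with library totals. Python 3.11.15 was used for other values. Symbols come from the table, or from a list for 4488 genes, and 1081 genes have none. Genes without an estimate were taken as 0 reads. The 3 genes and all lists were chosen with earlier results of these data known. 1 gene of the co-activator list is not reported here. Other genes are named by the extremes of their list, or as the 5 nearest to each gene. No sequence is shown, as no sequence table was used here.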

Additional observations from a re-analysis of the deposited data

Results flagged for a closer look

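The change of nanog between stages had opposite signs in the 2 library types. The log2 change in total RPM, 4.8 hpf over 1 hpf, was −0.84 in the polyA+ libraries and 0.49 in the ribo-depleted libraries. In stored reads it was −1.20 and 0.21. In TPM the ribo-depleted levels of total nanog lay closer together, at 521 at 4.8 hpf against 507 at 1 hpf. Stored reads were not computed in TPM. With an NTR of 17.8% at 4.8 hpf and 0% at 1 hpf, stored nanog in ribo-depleted RNA is lower at 4.8 hpf in TPM. Each library type had 1 library per stage, and the difference was not tested.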

How the results depend on the processing

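Alternatives that divide the NTR by the median of zygotic genes were chosen after seeing the data. No paired analysis was possible because the deposited values carry no replicate number, so the fits pair the stages by library type alone. Each stage and library type had 1 library, so the NTR intervals hold no variation between libraries.

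The NTR of pou5f3 at 4.8 hpf (38.9% polyA+, 43.4% ribo-depleted) was 55.8% and 54.5% from the conversions, 55.1% and 55.5% divided by the median of zygotic genes, and 34.6% in the ribo-depleted library with the 1 hpf NTR subtracted. For nanog (21.7% and 17.8%) the first 2 settings gave 34.2% and 27.9%, then 30.7% and 22.7%, and for sox19b (2.25% and 1.38%) 4.06% and 2.998%, then 3.18% and 1.76%. Division by such a median raises every value by construction. The order pou5f3, nanog, sox19b held in each library under each setting.

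The stored log2 ratio scaled to stored reads alone was 0.64 and 0.84 for pou5f3, −0.94 and 0.49 for nanog and −0.52 and −0.76 for sox19b (polyA+ and ribo-depleted). With TMM factors the ribo-depleted ratio was 0.90 for pou5f3, 0.55 for nanog and −0.70 for sox19b, and with the 1 hpf NTR set to 0 it was 0.43 for pou5f3. With the NTR divided by the median of zygotic genes it was −0.059 and 0.21 for pou5f3 and −1.37 and 0.12 for nanog. In place of the polyA+ ratio, the ribo-depleted libraries gave 0.56 for pou5f3, 0.21 for nanog and −1.04 for sox19b. Apart from the construction of each setting, the cause was not tested.

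DESeq2 called 1 of the 3 genes in total reads, where edgeR called 0, beside 3682 of 17757 genes by DESeq2 and 5326 of 16315 by edgeR. The leave-one-out fits, without library type and with the lone library of a stage assumed to vary like the other stage, called 0 of them in total and in stored reads. In these fits the log2 change of total pou5f3 reads lay between 0.49 and 2.24. That of total nanog reads lay between −0.93 and 0.86, and was 0.015 with DESeq2. That of stored nanog reads lay between −1.25 and 0.54, and that of stored pou5f3 reads between −0.30 and 1.63, with −0.12 when the ribo-depleted 1 hpf reads were left out. Of the co-activators, 2 were called by DESeq2, with library totals or without a filter on low counts, 0 without library type and 0 in the leave-one-out fits. Of the other POU genes, 1 was called by DESeq2, 1 without library type and 0 in the leave-one-out fits. Of the other SoxB1 genes, 2 to 3 were called in the leave-one-out fits, and of the 14 dependent genes 13 to 14. Over all genes edgeR called 5326 in total reads, DESeq2 3682, and edgeR without library type 1977, while the leave-one-out fits called 952 to 1675. In stored reads these were 4102, 2713, 329 and 0 to 588.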
